A study of Rattus norvegicus with 24 samples.

Results

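The receptors for GABA, the main inhibitory transmitter of the forebrain, were described through 7 genes in the CA1 field of the rat hippocampus: the GABA-A subunit genes Gabra2, Gabra3, Gabra4, Gabra5, Gabrb1 and Gabrd, and the GABA-B subunit gene Gabbr1. All probe sets that the array's annotation assigned to exactly 1 of these symbols were taken, which gave 13 of the 31099 probe sets on the array. A probe set is a group of short probes against 1 transcript or several. Its value is a log2 signal, so that a step of 1 is a doubling. Total RNA came from male Long-Evans rats, none of them treated, with 1 array per rat as the labels give it. The 9 Young rats were 6 months old and the 14 aged rats 24 to 26 months. A learning index from the Morris water maze, where low scores mean good performance, had placed 6 aged rats within the range of the young (Aged Unimpaired) and 8 outside it (Aged Impaired). The groups are therefore defined by behaviour and age alone, in tissue that was dissected and not sorted. The column of 1 more Aged Unimpaired array was blank and was not used.

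GABA-A receptors are chloride channels built from several subunits around a pore. Receptors with alpha 2 and gamma subunits sit largely at synapses, whereas those with alpha 4 and delta, and most of those with alpha 5, lie outside synapses and carry a steady, tonic inhibition. The alpha 5 subunit is enriched in the pyramidal cells of the hippocampus, and the delta subunit in granule cells of the dentate gyrus. GABA-B receptors are G protein-coupled pairs of Gabbr1, which binds GABA, and Gabbr2, which couples to the G protein. They open potassium channels of the Kcnj family and close calcium channels at terminals. In RefSeq's gene order Gabrb1 and Gabra4 are neighbours, and Gabra2 lies beside Gabrg1.

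Markers of CA1 were measured, and so were some of neighbouring fields. Of 8 markers of CA1 pyramidal cells, 7 were measured, and their mean log2 signal lay between 11.3 and 11.9 in every array. Fibcd1, a CA1 marker, had a mean of 10.9 over the arrays. Among 8 markers of dentate granule cells only the transcription factor Prox1 was measured, at a mean of 7.56, while Dsp, Tdo2, Plk5 and Il16 were dim. Of 9 markers of CA3 and CA2, 6 were measured, among them Pcp4, Rgs14 and Bok, and of 7 markers of thalamus 6, among them Slc17a6 and Prkcd. Of 5 choroid plexus markers only Ttr was measured. Levels of different probe sets are not comparable, so these counts give no share of each field in the tissue. Array medians were even, from 4.20 to 4.28, and across probe sets each array had a median correlation of 0.987 to 0.992 with the rest. The 3 lowest correlations were those of Aged Impaired replicates 7, 8 and 5. The groups were compared with limma in a model of the 3 group means over 16201 probe sets, those that exceeded 4 on the log2 scale in 6 or more of the arrays. A difference was called where its p, adjusted over all of them by the method of Benjamini and Hochberg, was under 0.05. The values are of bulk tissue, so fewer cells of a type and less RNA per cell cannot be told apart.

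Of the 13 probe sets, 10 passed the limit on dim signal and 3 did not. Those 10 belonged to 6 of the 7 genes. None of them differed between groups at the adjusted threshold in any of the 4 comparisons. For aged against young arrays 0 of 10 were called by limma, and 2.31% of all probe sets tested were called. For impaired against young it was 0 of 10 beside 2.31% of all, for unimpaired against young 0 of 10 beside 0.494%, and for impaired against unimpaired 0 of 10 beside 0%. At shares such as these, the absence of a call among 10 probe sets is near the background. At an unadjusted p under 0.05, the aged against young comparison held 2 of the 10 (Gabra4 and 1 probe set of Gabbr1), beside 14.2% of all. The impaired against young comparison held 1 (a probe set of Gabrd), beside 15.2%. No member reached it in the other comparisons, where 9.17% and 6.57% of all probe sets did. No other tool was run. The median log2 difference of the members, aged minus young, was 0.0028, and that of all probe sets tested 0.0056. Every group overlapped every other in all 10 probe sets. The share of all tested probe sets that overlap in this way was not counted, so this is no trait particular to the members.

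**Figure D1:**
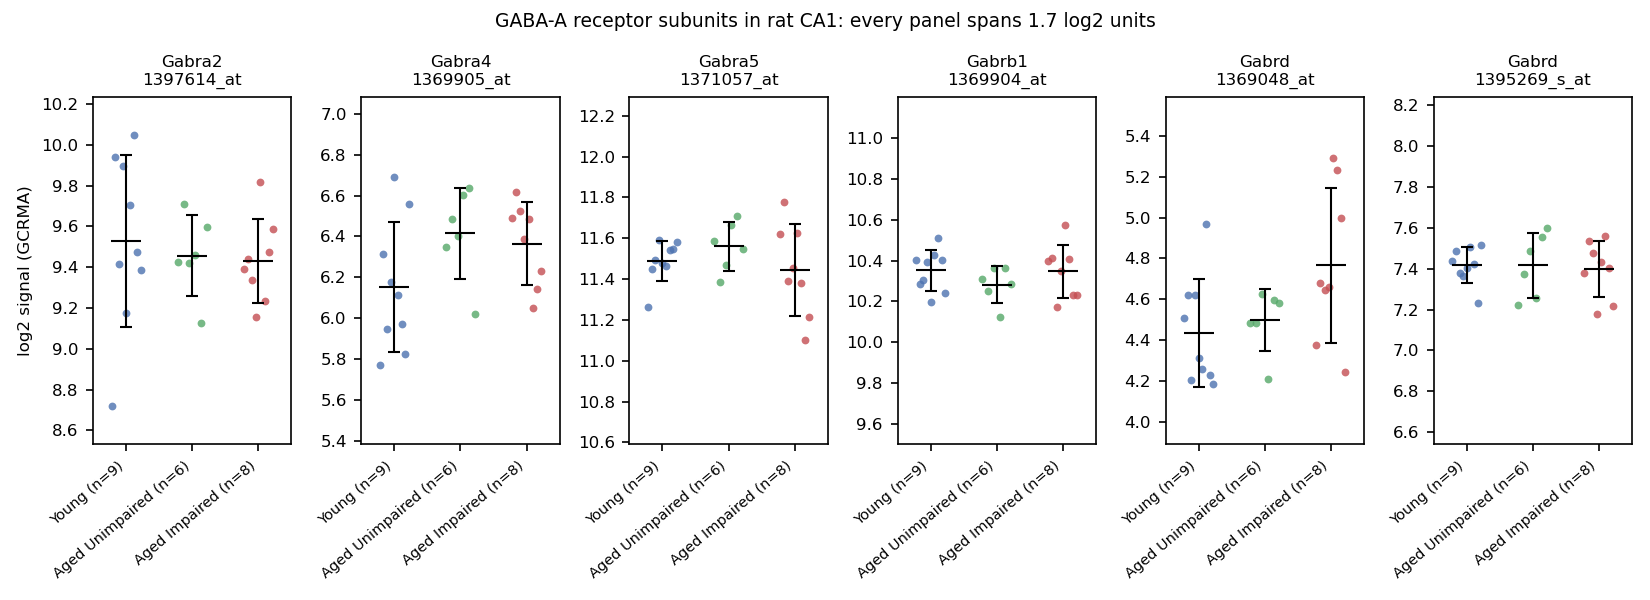
Log2 signal of each array for 6 probe sets of 5 GABA-A subunit genes, by group, with horizontal bars at the mean and error bars of 1 SD. Every panel spans the same range, so the narrow scatter of Gabrb1 and of Gabrd probe set 1395269_s_at stands against the wider scatter of Gabra2, and all groups overlap.

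Gabra5, the alpha 5 subunit, had close means in young and aged CA1 and its widest scatter in impaired rats. In its only probe set, 1371057_at, the log2 signal ran from 11.26 through a median of 11.49 to 11.59 in Young arrays. It ran from 11.39 through 11.57 to 11.71 in Aged Unimpaired and from 11.10 through 11.42 to 11.78 in Aged Impaired arrays. The Aged Impaired arrays therefore reached both further down and further up than the others, with 3 above and 2 below every Young array. The 2 below were replicates 7 (11.10) and 8 (11.21), which also had the lowest correlations with the other arrays. The SD was 0.23 among the 8 Aged Impaired arrays, 0.12 among the 6 Aged Unimpaired and 0.10 among the 9 Young arrays. That difference in spread was not tested. The SD was also largest in Aged Impaired arrays for Gabrb1, Gabrd probe set 1369048_at and Gabbr1 probe sets 1375720_at and 1388039_a_at. In the remaining measured probe sets it was largest in another group. On the log2 scale the aged groups stood 0.0057 ± 0.07 (SE) over Young, with a 95% interval from -0.13 to 0.14 (limma, Benjamini-Hochberg adjusted p = 0.982). Impaired minus unimpaired was -0.12 ± 0.08, with an interval from -0.29 to 0.06 (limma, adjusted p = 0.845). Against Young arrays, the difference was -0.04 ± 0.08 for impaired and 0.07 ± 0.08 for unimpaired rats. Without the 3 arrays of lowest correlation, impaired minus unimpaired was -0.037 and impaired minus young turned to 0.035. The intervals of the 4 comparisons did not reach 0.3 in either direction, a bound on the mean change of Gabra5 that does not show the groups to be alike. The sign of the aged minus young value turned with the scaling of the arrays, to -0.011 when each array was centred on its median and to -0.0027 after quantile normalization. The order of the group means was Aged Unimpaired, Young and Aged Impaired from high to low, and neither pair of neighbours differed beyond the spread.

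Gabra2, the alpha 2 subunit, showed most of its scatter among the young rats. Probe set 1397614_at ran from 8.72 through a median of 9.47 to 10.05 in Young arrays, from 9.12 through 9.44 to 9.71 in Aged Unimpaired arrays, and from 9.16 through 9.42 to 9.82 in Aged Impaired arrays. The lowest of all arrays was Young replicate 1, and all 14 aged arrays lay inside the young range. Aged minus young was -0.09 ± 0.13, with a 95% interval from -0.35 to 0.17 (limma, adjusted p = 0.830). It moved to -0.19 without Young replicate 1 and to -0.023 without Young replicate 7. The remaining comparisons gave -0.10 ± 0.14 for impaired minus young, -0.07 ± 0.15 for unimpaired minus young and -0.03 ± 0.16 for impaired minus unimpaired. The means fell in the order Young, Aged Unimpaired, Aged Impaired, in steps smaller than 1 SD of any group.

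Gabra4, the alpha 4 subunit, had a higher mean in the aged groups, without passing the test. The log2 signal of 1369905_at ran from 5.77 through a median of 6.11 to 6.69 in Young arrays. It ran from 6.02 through 6.44 to 6.64 in Aged Unimpaired and from 6.05 through 6.43 to 6.62 in Aged Impaired arrays. Of the 14 aged arrays, 12 lay above the young median, and none lay above the highest young array. Aged minus young was 0.23 ± 0.11, with a 95% interval from 0.02 to 0.45 (limma, unadjusted p = 0.0367, adjusted p = 0.310). The value was 0.21 ± 0.12 for impaired (adjusted p = 0.417) and 0.26 ± 0.13 for unimpaired rats (adjusted p = 0.560) against young, comparisons that share the Young arrays. Impaired and unimpaired arrays differed by -0.05 ± 0.13. Leaving out 1 array moved aged minus young between 0.19, without Young replicate 1, and 0.30, without Young replicate 5, with adjusted p between 0.122 and 0.453 (limma).

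Gabra3, the alpha 3 subunit, was not measured. Its probe set 1369844_at stayed between 2.17 and 2.24 in all 23 arrays, under the limit of 4, where the values carry no order. Gabrb1, the neighbour of Gabra4, encodes the beta 1 subunit. Beta subunits form the GABA site together with an alpha subunit. Probe set 1369904_at ran from 10.19 through 10.39 to 10.51 in Young, from 10.12 through 10.30 to 10.36 in Aged Unimpaired and from 10.17 through 10.37 to 10.58 in Aged Impaired arrays. All 6 Aged Unimpaired arrays lay below the young median, but only 1 lay below every Young array. Unimpaired minus young was -0.07 ± 0.06, with a 95% interval from -0.19 to 0.05 (limma, adjusted p = 0.805). Impaired minus young was -0.0043 ± 0.05, and impaired minus unimpaired was 0.07 ± 0.06 (adjusted p = 0.886). The within-group SD of Gabrb1 was 0.11, at percentile 24.5 of the probe sets tested.

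Gabrd, the delta subunit, had 3 probe sets, with different values. The dimmest that still passed, 1369048_at, ran from 4.18 through 4.31 to 4.97 in Young, from 4.21 through 4.53 to 4.62 in Aged Unimpaired and from 4.24 through 4.67 to 5.29 in Aged Impaired arrays. Of the 8 Aged Impaired arrays, 6 lay above all 6 Aged Unimpaired arrays and 3 above all 9 Young arrays. Impaired minus young was 0.33 ± 0.13, with a 95% interval from 0.06 to 0.61 (limma, unadjusted p = 0.0207, adjusted p = 0.225). This adjusted p was the smallest of any member in any comparison. Leaving out 1 array moved the value between 0.26, without Aged Impaired replicate 5, and 0.41, without Aged Impaired replicate 8, with adjusted p between 0.0892 and 0.390 (limma). Replicates 5 and 7, which are 2 of the 3 arrays above all Young arrays, are among the 3 of lowest correlation. Impaired minus unimpaired was 0.27 ± 0.15 (adjusted p = 0.791), aged minus young 0.22 ± 0.12 (adjusted p = 0.425) and unimpaired minus young 0.06 ± 0.15.

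The other measured probe set of Gabrd, 1395269_s_at, did not show that pattern. Its suffix marks probes shared by transcripts of more than 1 gene. It ran from 7.23 through 7.42 to 7.52 in Young, from 7.22 through 7.43 to 7.60 in Aged Unimpaired and from 7.18 through 7.42 to 7.56 in Aged Impaired arrays. Impaired minus young was -0.02 ± 0.06, with a 95% interval from -0.15 to 0.11 (limma, adjusted p = 0.926). That interval overlaps the one of 1369048_at, from 0.06 to 0.61, and the difference between the probe sets was not tested. The third, 1395270_x_at, was dim, between 1.92 and 2.02 in all arrays. The signal of 1369048_at lay just over the limit of 4. Prox1, the measured marker of dentate granule cells, gave 0.67 ± 0.25 for impaired minus unimpaired (limma, unadjusted p = 0.0135, adjusted p = 0.652). Against Young arrays Prox1 differed by 0.19 ± 0.23 in impaired rats and by -0.48 in unimpaired rats. Its part in the signal of Gabrd was not tested.

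**Figure D2:**
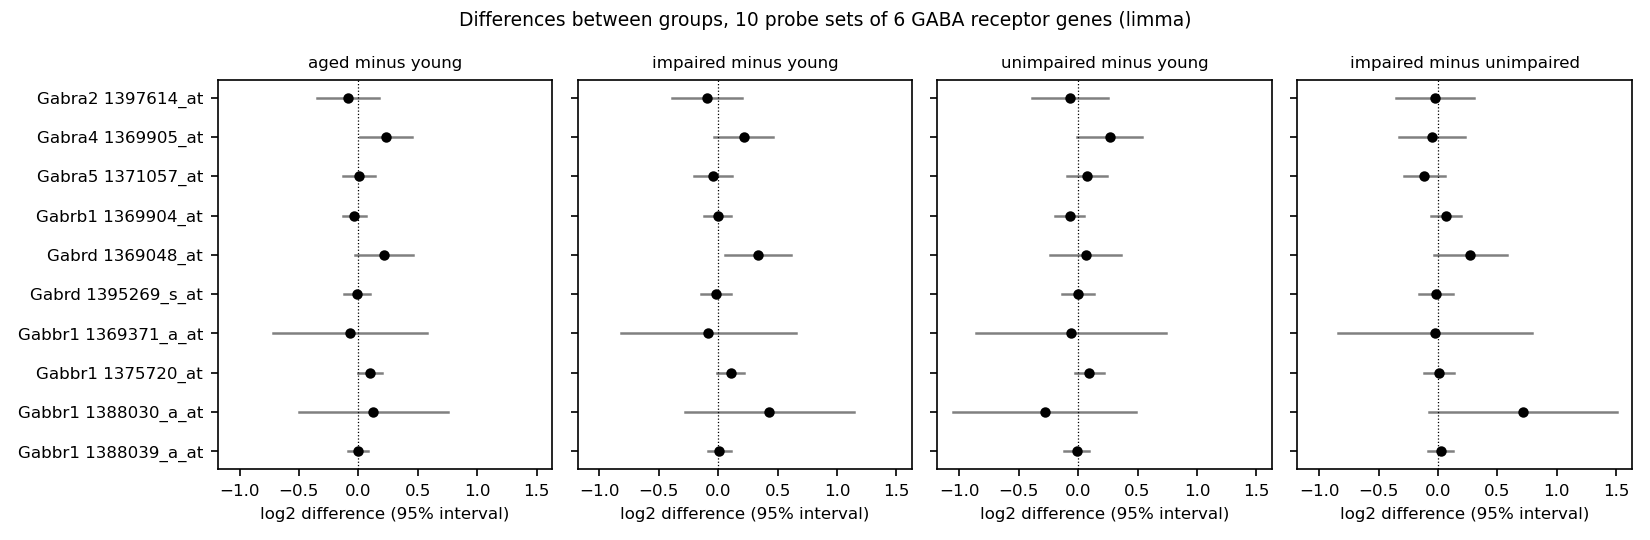
Log2 differences from limma with 95% intervals for the 10 measured probe sets of 6 GABA receptor genes in the 4 comparisons, each named first group minus second. The interval of most probe sets crosses 0, and the widest are those of Gabbr1 probe sets 1369371_a_at and 1388030_a_at.

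Gabbr1, the GABA-binding subunit of the GABA-B receptor, had 5 probe sets, 1 of which (1369372_at) was dim, between 1.61 and 1.66. The gene is known to give several transcripts, among them the forms 1a and 1b that start at different promoters. The ending _a_at marks probe sets whose probes match alternative transcripts of a single gene. Which transcripts each one detects was not determined here. The pair of probe sets with the steadiest signal gave narrow bounds. For 1388039_a_at the log2 signal ran from 12.24 through 12.31 to 12.46 in Young, from 12.20 through 12.33 to 12.43 in Aged Unimpaired and from 12.24 through 12.35 to 12.54 in Aged Impaired arrays. Aged minus young was -0.00016 ± 0.04, with a 95% interval from -0.08 to 0.08 (limma, adjusted p = 0.999). For 1375720_at the signal ran from 11.67 through 11.75 to 11.94 in Young, from 11.82 through 11.85 to 12.03 in Aged Unimpaired and from 11.65 through 11.91 to 12.03 in Aged Impaired arrays. Here 13 of the 14 aged arrays lay above the young median and 5 above every Young array. Aged minus young was 0.10 ± 0.05, with an interval from 0.00086 to 0.20 (limma, unadjusted p = 0.0482, adjusted p = 0.348). The value was 0.10 ± 0.05 for impaired and 0.09 ± 0.06 for unimpaired rats against young.

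The remaining probe sets of Gabbr1 varied far more between rats than between groups. For 1369371_a_at the signal ran from 7.31 through 8.88 to 10.93 in Young, from 8.49 through 8.74 to 9.37 in Aged Unimpaired and from 8.20 through 8.83 to 9.67 in Aged Impaired arrays. The young range alone spans 12.3-fold, between replicates 5 and 4. For 1388030_a_at it ran from 5.91 through 7.45 to 8.62 in Young, from 5.98 through 7.18 to 7.59 in Aged Unimpaired and from 7.08 through 7.76 to 7.99 in Aged Impaired arrays, a young range of 6.53-fold. Their within-group SDs were 0.78 and 0.76, at percentiles 99.5 and 99.5 of all probe sets tested, where the median SD was 0.15. The SDs of 1375720_at and 1388039_a_at were 0.11 and 0.09, at percentiles 23.5 and 12.0. No group difference passed the test in either variable probe set. For 1388030_a_at, impaired minus unimpaired was 0.71 ± 0.38, with a 95% interval from -0.08 to 1.5 (limma, unadjusted p = 0.0759, adjusted p = 0.781). Of the 8 Aged Impaired arrays, 6 lay above all 6 Aged Unimpaired arrays, and all 8 lay inside the young range. For 1369371_a_at the same comparison gave -0.03 ± 0.40 and aged minus young -0.07 ± 0.31.

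The 2 variable probe sets of Gabbr1 ran in opposite directions from rat to rat. Young replicate 5 had the lowest signal in 1369371_a_at (7.31) and the highest in 1388030_a_at (8.62). Young replicate 8, at 7.82 and 8.55, and Young replicate 4, at 10.93 and 6.14, showed the same opposition. Over the 23 arrays Pearson's r was -0.70 (permutation p = 1.5e-04, adjusted p = 0.00675 over 45 pairs of member probe sets). Spearman's rho was -0.60 (permutation p = 0.00284, adjusted p = 0.128), so that the relation passed the adjusted threshold by r and not by rho. Without the 2 arrays farthest from the median of 1369371_a_at, r was -0.59. Within groups r was -0.81 in the 9 Young, -0.91 in the 6 Aged Unimpaired and -0.21 in the 8 Aged Impaired arrays, which had the narrowest range in 1388030_a_at. Over all arrays, no relation of the steady probe sets of Gabbr1 with either one passed the adjusted threshold. With 1369371_a_at, r was -0.15 for 1375720_at and 0.16 for 1388039_a_at, and with 1388030_a_at it was 0.31 and -0.04 (permutation, adjusted p between 0.461 and 0.865). Each of these r differed in sign between groups, which was not tested. For 1375720_at with 1388030_a_at it was 0.76 in Young, -0.61 in Aged Unimpaired and 0.08 in Aged Impaired arrays.

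**Figure D3:**
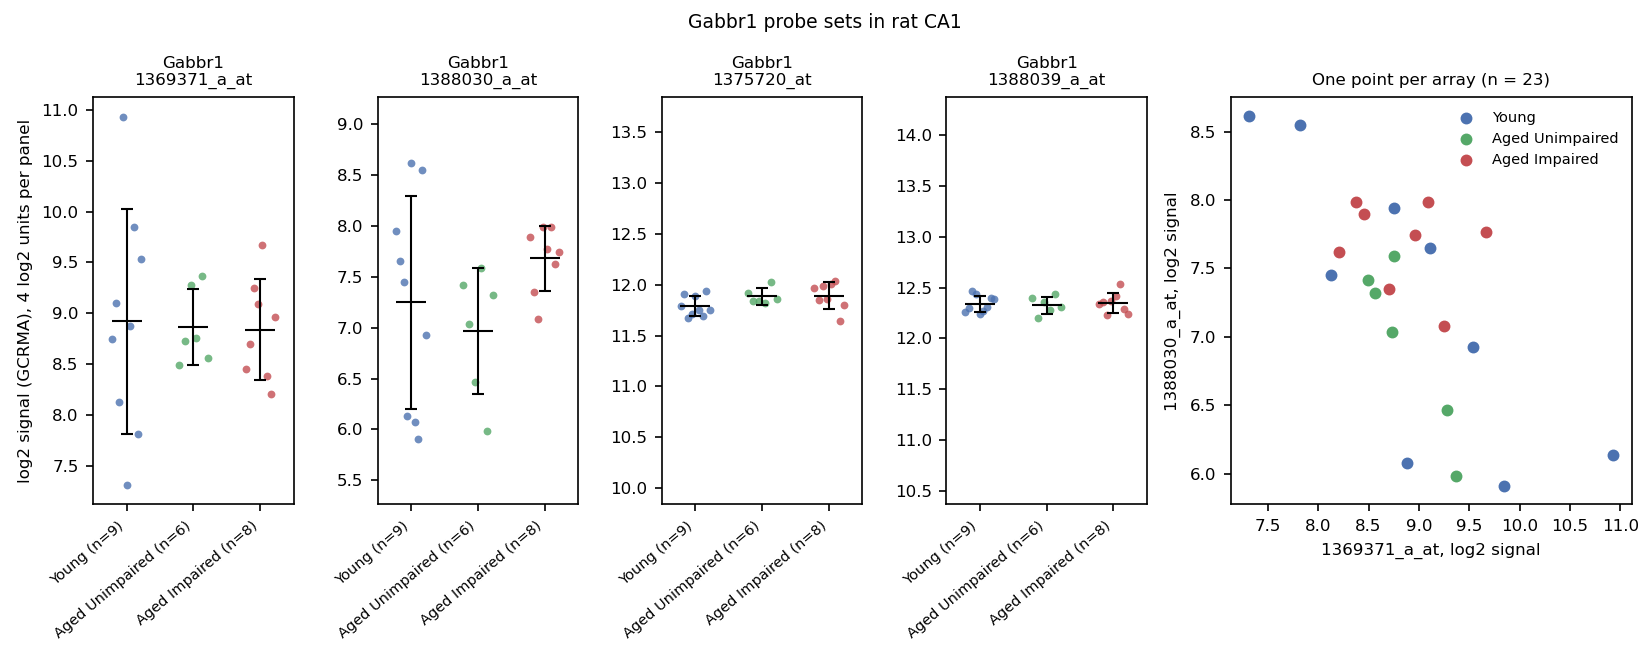
Left, log2 signal of the 4 measured Gabbr1 probe sets by array and group, with bars at the mean and error bars of 1 SD, in panels of equal span. Right, 1388030_a_at against 1369371_a_at with 1 point per array, which fall from upper left to lower right (r = -0.70 over 23 arrays).

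Other pairs of member probe sets showed weaker relations. Of the 45 pairs, the 1 just described was the only one with an adjusted p under 0.05 by r. The highest r was 0.51, between Gabrb1 and Gabrd probe set 1369048_at (permutation, adjusted p = 0.304). It was 0.27 without the 2 arrays farthest from the median of Gabrb1, and Spearman's rho over all arrays was 0.40. The neighbouring genes Gabra4 and Gabrb1 had an r of -0.34, and the median size of r over all pairs was 0.21. The measured probe sets of Gabrd, 1369048_at and 1395269_s_at, had an r of 0.33. Gabra4 and Gabra5 had an r of 0.42, and Gabra5 and Gabbr1 probe set 1388039_a_at one of 0.40. All arrays share the normalization, which can lend unrelated probe sets a common part.

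**Figure D4:**
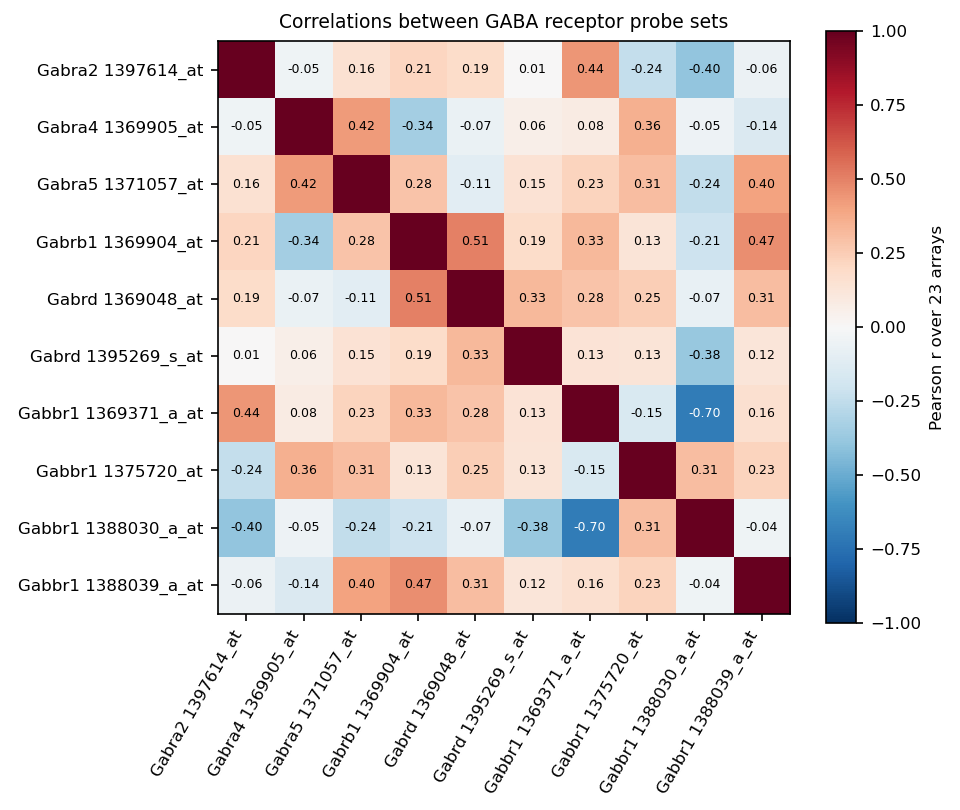
Pearson correlations of log2 signal over the 23 arrays between the 10 measured probe sets. The strongest is the negative relation within Gabbr1, at -0.70, and no pair of different genes exceeds 0.51.

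The genes whose signal ran most like each member over the 23 arrays were taken as the 3 with the highest r among 9076 genes, as a description of likeness. For Gabra5 they were the protocadherin Pcdh20 (r = 0.86, rho = 0.68), the potassium channel subunit Kcnj6 (r = 0.85, rho = 0.82) and Sdhaf1 (r = 0.82, rho = 0.84). Without the 2 arrays farthest from the median of Gabra5, r was 0.75, 0.81 and 0.79 for these. Kcnj6 is 1 of the potassium channel subunits that GABA-B receptors open. Its probe set 1369035_a_at had its lowest group mean in Aged Impaired arrays, at 10.52 ± 0.20 (SD, n = 8) against 10.62 ± 0.12 (SD, n = 9) in Young arrays, a difference of -0.09 ± 0.08 (limma, adjusted p = 0.636). For Gabrb1 the genes were Sdhb (r = 0.77), the somatostatin receptor Sstr3 (0.76) and Prps1 (0.75). For Gabra4 they were Micu3 (0.73), Mcl1 (0.66) and the stress hormone target Sgk1 (0.65). For Gabra2 they were C7h12orf75 (0.65), Ing3 (0.64) and Dxo (0.63), of which Ing3 and Dxo fell to 0.33 and 0.41 without the 2 farthest arrays. For Gabrd probe set 1395269_s_at they were Aamp (0.68), Cabin1 (0.67) and Pla2g6 (0.64), and for Gabbr1 probe set 1388039_a_at Cox6b1 (0.80), Tmem38a (0.80) and Emc3 (0.79).

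The variable Gabbr1 probe sets were compared in the same way after their values were seen. Gabbr1 lies beside the myelin gene Mog in RefSeq's gene order, in the part of the genome that holds the rat's major histocompatibility complex. The gene most like 1388030_a_at was RT1-N2, a class I gene of that complex, with r = 0.80, rho = 0.80 and r = 0.73 without the 2 farthest arrays, and 25 protein-coding genes lie between them. Next came Csnk1e (r = 0.69) and Ssbp4 (r = 0.68), both on other chromosomes. RT1-N2 itself ran from 3.89 through 7.30 to 7.85 in Young, from 3.38 through 6.73 to 7.30 in Aged Unimpaired and from 5.97 through 7.38 to 8.08 in Aged Impaired arrays, so that some rats were near the limit for dim signal and others far over it. The gene most like 1369371_a_at was Rorb (r = 0.75, rho = 0.63, and r = 0.56 without the 2 farthest arrays), followed by Ociad1 (0.71) and Zbtb41 (0.70), all on other chromosomes.

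The rest of the GABA system was read from lists of its genes. Few of the other GABA-A subunit genes were measured. Of 13, 10 had a probe set with a single symbol, and only Gabrb2 and Gabrg1 passed the limit on dim signal. Neither was called in any comparison, beside at most 2.31% of all probe sets. For the beta 2 subunit Gabrb2, aged minus young was -0.10 ± 0.04 in probe set 1377773_at (limma, unadjusted p = 0.0262, adjusted p = 0.264) and -0.23 ± 0.16 in 1369818_at (adjusted p = 0.562). For the gamma 1 subunit Gabrg1 it was 0.06 ± 0.14 (adjusted p = 0.907). Of the GABA-B partners, Gabbr2 gave -0.02 ± 0.08 in 1 of its 2 probe sets (adjusted p = 0.948), and the other is not given here. The auxiliary subunit Kctd12 gave -0.13 ± 0.06 and -0.23 ± 0.10 in its probe sets (adjusted p = 0.324 and 0.286). Among 9 genes of GABA synthesis, packaging, uptake and breakdown, 0 of 5 measured were called in any comparison, which is near the same background. The smallest p were those of Aldh5a1, which oxidises the product of GABA breakdown, at 0.18 ± 0.06 (adjusted p = 0.123), and the GABA transaminase Abat, at 0.12 ± 0.09 (adjusted p = 0.587).

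Of 17 measured genes of GABA-A receptor anchoring and trafficking, 0 were called in any comparison, beside 2.31% of all probe sets for aged minus young and 0% for impaired minus unimpaired, so that 0 is near the background. Their median difference, aged minus young, was 0.02. The trafficking adaptor Trak1 gave -0.17 ± 0.05 (limma, unadjusted p = 0.00531, adjusted p = 0.122). Radixin (Rdx), which tethers alpha 5 receptors to actin, gave -0.18 ± 0.06 in probe set 1375542_at (adjusted p = 0.133), and its 4 other probe sets lay between -0.13 and 0.03. Of 11 measured effectors of GABA-B receptors, 0 were called in any comparison, again near the background, with a median aged minus young of -0.02. Kcnj3, another potassium channel subunit, gave -0.075 ± 0.04 in probe set 1369741_at (adjusted p = 0.433), and Kcnj6 -0.04 ± 0.03 in probe set 1370704_at (adjusted p = 0.615).

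Calls within the GABA system came from chloride transport, which sets the driving force of GABA-A receptors. Of 5 measured genes 2 rose in aged against young arrays and 2 in impaired against young arrays, beside 2.31% of all probe sets called in each. Wnk1, a kinase that drives chloride uptake, had 2 measured probe sets of 5. In 1372791_at it rose by 0.26 ± 0.05 with age (limma, adjusted p = 0.0102), from 11.14 ± 0.15 (SD, n = 9) to 11.40 ± 0.11 (SD, n = 14). It rose by 0.25 ± 0.06 in impaired against young arrays (adjusted p = 0.0348), a call lost in 11 of 23 fits that left out 1 array, with no filter (0.0602), with only the groups compared (0.0781) and without the 3 arrays of lowest correlation (0.0908). The other probe set, 1387072_at, gave 0.31 ± 0.09 with age (adjusted p = 0.0562) and was not called. Neither probe set of Wnk1 was called in unimpaired against young or in impaired against unimpaired arrays. The rise of Wnk1 was therefore not shown to differ by learning status. Oxsr1, the kinase that Wnk1 activates, rose by 0.25 ± 0.07 with age (limma, adjusted p = 0.0443), a call lost in 13 of 23 such fits. It was also lost when arrays were centred or quantile normalized (adjusted p = 0.0683 and 0.0621), with no filter (0.0796), array weights (0.0928) or the RNA quality covariate (0.103), and without the 3 arrays of lowest correlation (0.0664). Slc12a2, the sodium, potassium and chloride importer NKCC1, rose by 0.32 ± 0.07 in impaired against young arrays (limma, adjusted p = 0.0182), from 10.20 ± 0.11 (SD, n = 9) to 10.53 ± 0.18 (SD, n = 8). In unimpaired rats Slc12a2 stood at 10.27 ± 0.17 (SD, n = 6), 0.07 ± 0.08 over young (adjusted p = 0.895). The direct test, impaired minus unimpaired, gave 0.26 ± 0.08 (limma, unadjusted p = 0.00461, adjusted p = 0.572) and did not pass. The chloride exporter Slc12a5 (KCC2) differed by 0.03 ± 0.03 with age, with a 95% interval from -0.04 to 0.10 (adjusted p = 0.750).

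**Figure D5:**
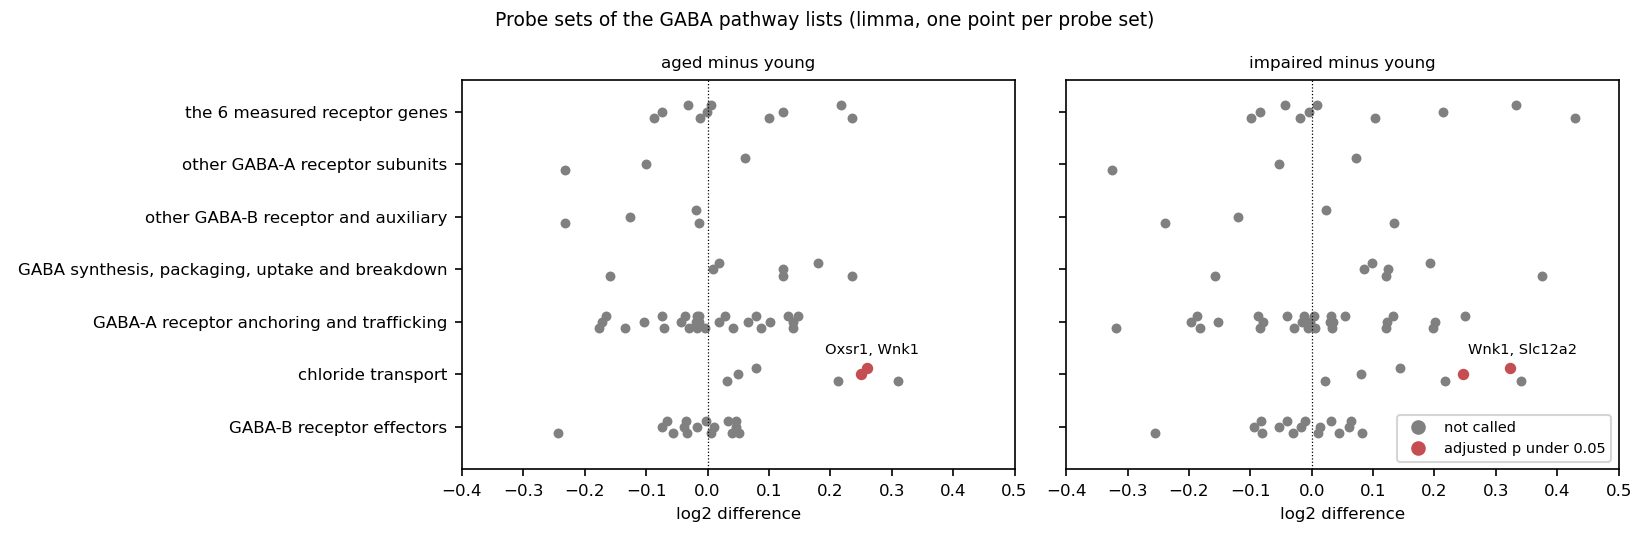
Log2 differences of all measured probe sets of the receptor genes and of 6 lists of the GABA system, for aged minus young (left) and impaired minus young (right), with called probe sets in red. The red points are Oxsr1 and Wnk1 on the left and Wnk1 and Slc12a2 on the right, all of the chloride transport list.

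Markers of astrocytes and of microglia were called in aged, in impaired and in unimpaired against young arrays. In unimpaired against young arrays Gfap rose by 0.45 ± 0.09, C1qa by 0.62 ± 0.10 and Ctss by 0.29 ± 0.06 (limma, adjusted p = 0.0219, 0.00440 and 0.0317). There the call of Gfap was lost with no filter and with the RNA quality covariate (limma, adjusted p = 0.0532 and 0.0675). That of Ctss was lost with no filter (0.0541), centred arrays (0.0511), the RNA quality covariate (0.0948) and the replicate block (0.209). Of 8 astrocyte markers measured, 3 rose with age (Gfap by 0.51 ± 0.08, Agt by 0.25 ± 0.05 and S100b by 0.14 ± 0.03), and 3 of 8 microglial markers (C1qa by 0.55 ± 0.08, Aif1 by 0.45 ± 0.09 and Ctss by 0.32 ± 0.05). The astrocyte genes had 14 measured probe sets and the microglial genes 9, and 2.31% of all probe sets were called in that comparison. The mean log2 signal of the 8 astrocyte markers ran from 11.50 to 11.76 over the Young, from 11.67 to 11.79 over the Aged Unimpaired and from 11.64 to 11.92 over the Aged Impaired arrays. That of the 8 microglial markers ran from 8.21 to 8.72, from 8.53 to 8.83 and from 8.56 to 8.99. In impaired against young arrays the microglial receptor Csf1r rose by 0.30 ± 0.08 (limma, adjusted p = 0.0418) and the oligodendrocyte gene Opalin by 0.35 ± 0.09 (adjusted p = 0.0415), by calls lost in 15 and 12 of 23 fits without 1 array. Both were also lost with no filter (adjusted p = 0.0811 and 0.0852), array weights (0.0879 and 0.113), only the groups compared (0.0943 and 0.0787) and without the 3 arrays of lowest correlation (0.190 and 0.115). The endothelial transporter Slco1c1 fell, by -0.41 ± 0.08 with age (limma, adjusted p = 0.00729), the 1 called among 5 endothelial markers. The part of these cells in the values of Wnk1, Oxsr1 and Slc12a2 was not tested.

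None of 8 interneuron, 7 CA1 pyramidal, 6 CA3 and CA2, 6 thalamic, 1 dentate or 1 choroid plexus marker was called in any comparison. Of all probe sets 2.31%, 2.31%, 0.494% and 0% were called in the 4, so that the absence of a call is not far from the background. The median difference of the CA1 list was -0.03 for aged minus young, -0.11 for impaired minus young and -0.18 for impaired minus unimpaired. Among interneuron markers, aged minus young was 0.12 ± 0.04 for Pvalb (limma, adjusted p = 0.181) and -0.12 ± 0.05 for Cck (adjusted p = 0.234). The mean log2 signal of the 8 interneuron markers ran from 8.56 to 8.82 over the Young, from 8.56 to 8.69 over the Aged Unimpaired and from 8.42 to 8.84 over the Aged Impaired arrays. For the CA1 markers Pex5l and Neurod6, aged minus young was 0.29 ± 0.12 in probe set 1379753_at and -0.11 ± 0.05 (adjusted p = 0.264 and 0.317).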

How the data were processed

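Values deposited by the authors are log2 signals. The submitters' processing notes name GCRMA as their source. GCRMA corrects background from probe sequence, normalizes between arrays and summarises probes; its version and settings are not given in the sources used here. For dim probe sets this gives nearly constant values, so small standard errors there carry no information on level. Values were used as deposited. Of 31099 probe sets, 20832 had 1 symbol, 436 several and 9831 none in the platform annotation. The 16201 probe sets that exceeded 4 in 6 or more of the 23 arrays entered limma (version 3.58.1, R version 4.3.3), with the aged mean weighted by the 8 and 6 arrays. Probe sets rather than genes were fitted, because all probe sets of the 7 genes are described. Correlations used 100000 permutations in numpy 2.4.6, and figures matplotlib 3.10.9. The fit was tested on simulated data.

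The members and lists were chosen with earlier results of these data known. Named were all probe sets of the 7 genes and, from each list, every gene called in any comparison and the 2 with the smallest p for aged minus young, in so far as the text describes the list. For likeness, the 3 genes of highest Pearson r were named for the highest-mean probe set of each measured gene. Slc12a5, Pcp4, Fibcd1, the dim dentate markers and the genes most like the variable Gabbr1 probe sets fall outside the rule and were chosen after their values were seen. The labels call the replicates biological. The labels name no batch. Alternatives covered the filter, scaling, array weights, an RNA quality covariate, the replicate block, the threshold and leaving out arrays. The number of arrays limits the precision.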

Additional observations from a re-analysis of the deposited data

Results flagged for a closer look

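Of the 30 groups of arrays checked for a stray value (10 probe sets in 3 groups), 2 held one by Dixon's ratio, about the 1 in 20 that chance gives. Young replicate 1 had the lowest signal of Gabra5 among Young arrays, at 11.26 against a group median of 11.49. It was also the lowest Young array for Gabra2 and Gabra4. Aged Unimpaired replicate 4 had the lowest signal of Gabrd probe set 1369048_at in its group, at 4.21 against a median of 4.53. That group of arrays as a whole was only just over 4, under which values count as dim.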

How the results depend on the processing

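No member was called under any alternative, in 40 results and 1370 further fits (limma; smallest adjusted p 0.0892). Of these results, 20 changed sign somewhere, with sizes up to 0.19. With arrays centred, Gabra5 gave -0.011 (aged minus young) and Gabbr1 1388039_a_at -0.00096 (impaired minus young), and after quantile normalization -0.0027 and -0.0034. With array weights, impaired minus young was 0.0015 for Gabrb1 and 0.012 for Gabra5, and impaired minus unimpaired 0.031 for Gabbr1 1369371_a_at and 0.030 for Gabra4. With the RNA quality covariate, Gabbr1 1369371_a_at and Gabrd 1395269_s_at gave 0.039 and 0.014 (aged minus young) and 0.12 and 0.039 (unimpaired minus young), and Gabbr1 1375720_at -0.0099 (impaired minus unimpaired). Without the 3 arrays of lowest correlation, chosen after seeing the data, aged minus young was 0.0065 for Gabbr1 1388039_a_at and 0.0034 for Gabrd 1395269_s_at, impaired minus young 0.035 for Gabra5 and 0.0092 for Gabrd 1395269_s_at, and impaired minus unimpaired 0.011 for Gabrd 1395269_s_at. The causes were not tested.

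Leaving out 1 array at a time gave these ranges where a sign turned. Aged minus young ran from -0.28 to 0.18 for Gabbr1 1369371_a_at, -0.044 to 0.29 for 1388030_a_at, -0.015 to 0.015 for 1388039_a_at, -0.023 to 0.036 for Gabra5 and -0.035 to 0.0059 for Gabrd 1395269_s_at. Impaired minus young ran from -0.29 to 0.17 for Gabbr1 1369371_a_at, -0.018 to 0.025 for 1388039_a_at, -0.091 to 0.0053 for Gabra5, -0.037 to 0.020 for Gabrb1 and -0.042 to 0.012 for Gabrd 1395269_s_at. Unimpaired minus young ran from -0.26 to 0.19 for Gabbr1 1369371_a_at, -0.033 to 0.013 for 1388039_a_at and -0.038 to 0.037 for Gabrd 1395269_s_at. Impaired minus unimpaired ran from -0.14 to 0.076 for Gabbr1 1369371_a_at, -0.011 to 0.045 for 1375720_at, -0.0055 to 0.042 for 1388039_a_at, -0.093 to 0.024 for Gabra2 and -0.056 to 0.019 for Gabrd 1395269_s_at.

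Over all probe sets, calls for aged minus young were 375, and 613 at an adjusted p under 0.1. For impaired minus young they were 375, 683 at that threshold and 239 without the 3 arrays. For unimpaired minus young they were 80, 147 at that threshold, 47 without a filter, 178 with array weights and 33 (without Aged Unimpaired replicate 4) to 92 in the leave-outs.

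The replicate block lowered these counts to 164, 157 and 23. Same-numbered arrays did not deviate together more than others did. Their median r was -0.042 over 20 pairs, 1 over 0.1, beside 0.015 over 154 pairs of other numbers, 19 over 0.1. This check cannot tell whether the numbers stand for a shared step of the work. With the block, Gabbr1 1388039_a_at gave 0.0088 (aged minus young) and 0.00070 (unimpaired minus young), Gabrd 1369048_at -0.0096 and 1395269_s_at 0.0034 (unimpaired minus young). For impaired minus unimpaired, Gabbr1 1369371_a_at gave 0.086, 1375720_at -0.0028 and Gabra4 0.0091. The calls of Wnk1, Oxsr1 and Slc12a2 were lost with it (limma, adjusted p from 0.0735 to 0.210), as were those of Aif1 (0.0556), S100b (0.104) and Slco1c1 (0.0673) for aged minus young and of Csf1r (0.124) and Opalin (0.212) for impaired minus young. The call of Ctss for unimpaired minus young was lost as well (limma, adjusted p = 0.209).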
